A study of Mus musculus with 20 samples.

Results

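The interferon-stimulated genes examined here were 51 mouse genes chosen by name, each represented by the longest transcript listed for its symbol, out of 23992 gene symbols in the deposited tables. They comprise 4 cytosolic nucleic acid sensors, 3 interferon regulatory transcription factors, 15 antiviral effectors, 8 genes of ISG15, ubiquitin and ADP-ribose conjugation, 7 guanylate-binding proteins (GBPs), 7 immunity-related GTPases (IRGs) and 7 other interferon-induced genes. RNA was sequenced from CD8+ T cells taken from the spleens of wild-type C57BL/6J mice aged 6 to 8 weeks. All cells had been activated on plate-bound anti-CD3 with soluble anti-CD28 for 48 hours and rested overnight. Treated cells were then given native murine IL-21 (mIL-21) or 21h10, a computationally designed protein that mimics IL-21, for 24 hours. Unstimulated cells had no cytokine, and their labels give no culture time. Any difference in culture time from treated cells cannot be told apart from an effect of cytokine. The first experiment had 10 libraries (unstimulated, and each cytokine at 100 pM and 1 nM) and the second had 10 (its own unstimulated cells, and each cytokine at 10 nM and 100 nM), with n = 2 libraries in every group. The labels call the members of a pair duplicates and do not tie them to separate mice, so p-values measure the spread between such libraries, which may be technical. The study's methods describe its RNA-seq replicates in general as independent, from different preparations or donors. Dose range and experiment change together and cannot be told apart.

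Interferons are secreted antiviral cytokines that act through receptor-bound Janus kinases. Type I interferons bring STAT2 and IRF9 to the interferon-stimulated response element, whereas IFN-γ acts through the gamma-activated site, and both routes induce antiviral enzymes, GBPs and IRGs that restrict viruses and vacuolar pathogens. IL-21 uses the common gamma chain and signals mainly through STAT3, and activated CD8+ T cells are themselves a source of IFN-γ.

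Reads assigned to genes ranged from 36824740 to 94070730 per library in the first experiment and from 27072917 to 43300094 in the second, and every member passed the filter on low counts in both. Expression is given below in CPM, the read count divided by library size and put on a common scale, after TMM scaling, a correction for library composition, for comparison between libraries, and in RPKM, which also divides by transcript length, where genes are compared with each other. Markers of CD8+ T cells were abundant (7 genes, summing to 1256 to 1909 RPKM over the 20 libraries), while Ncr1 and Klrb1c of NK cells together stayed at or below 0.46 RPKM and S100a8 and S100a9 of granulocytes were at 0 in every library. Of the 5 macrophage and monocyte genes in the tables, Fcgr1 was at 0 throughout, and Lyz2 and Csf1r did not exceed 0.232 and 0.0128 RPKM. The list nevertheless summed to 3.39 to 3.64 RPKM in unstimulated and 16.4 to 34.4 RPKM in treated libraries of the first experiment, and to 4.63 to 4.81 and 12.3 to 22.7 RPKM in the second, carried by Itgam and Cd68. B cell markers summed to 7.23 to 7.34 RPKM in unstimulated cells of the first experiment, 9.99 to 10.5 RPKM with mIL-21 at 100 pM and 3.97 to 4.17 RPKM with 21h10 at 1 nM, carried by Cd79b, and the other 4 of the 5 stayed under 0.5 RPKM in every library. Dendritic cell markers summed to 1.51 to 1.62 RPKM unstimulated and 2.24 to 8.38 RPKM treated, highest with mIL-21 at 100 pM, where Itgax carried them. CD4 T cell markers went from 5.25 to 5.33 RPKM to 10.7 to 12.7 RPKM, carried by Zbtb7b, while Cd4 did not rise. In the second experiment these sums went from 6.25 to 8.3 RPKM to 3.09 to 4.34 RPKM (B cells), from 2.91 to 3.42 to 1.76 to 4.83 RPKM (dendritic cells) and from 4.66 to 5.79 to 5.27 to 8.25 RPKM (CD4 T cells). The part of these shifts in the results below was not tested. In bulk RNA, fewer cells making a transcript and less transcript per cell cannot be told apart.

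Promoters are shown first because the recognition sequences of the pathway can be read in them. Windows of the 250 bases before an annotated start were available from RefSeq (mouse build GRCm38.p6) for 38 of the 51 members. The core of the interferon-stimulated response element, searched on both strands as 2 copies of GAAA with any 2 bases between them, was present in 19 of the 38 members (50%), against 2.977% of 32851 windows and 3.463% of 27025 genes. The palindrome of the gamma-activated site, searched as TTCNNNGAA on both strands, was present in 12 of 38 (31.58%), against 7.02% of windows and 8.13% of genes. Both occurred in 8 members (Bst2, Gbp5, Gbp7, Igtp, Irgm2, Oas1a, Tgtp1 and Tgtp2), the response element alone in 11, the palindrome alone in 4 and neither in 15. The 2 motifs may overlap, and a match describes letters only. Sequences that differ from the searched letters were not counted. The following 6 windows were chosen to show several copies of the response element core (Isg15, Ifit1), a palindrome beside a core in neighboring IRG genes (Igtp, Irgm2), a palindrome alone (Irf1) and no match (Ifi44, the member that fell furthest). They lie at chr4:156200819-156201068 (Isg15, minus strand), chr19:34640639-34640888 (Ifit1, plus), chr11:58199306-58199555 (Igtp, plus), chr11:58214727-58214976 (Irgm2, plus), chr11:53769764-53770013 (Irf1, plus) and chr3:151749911-151750160 (Ifi44, minus). Each is written 5′ to 3′ along the gene, with motif letters in capitals.
Isg15: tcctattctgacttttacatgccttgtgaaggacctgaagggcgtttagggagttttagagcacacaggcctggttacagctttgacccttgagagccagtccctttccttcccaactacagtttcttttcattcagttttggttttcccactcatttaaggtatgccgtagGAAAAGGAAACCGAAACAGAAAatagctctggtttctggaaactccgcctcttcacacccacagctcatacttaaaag
Ifit1: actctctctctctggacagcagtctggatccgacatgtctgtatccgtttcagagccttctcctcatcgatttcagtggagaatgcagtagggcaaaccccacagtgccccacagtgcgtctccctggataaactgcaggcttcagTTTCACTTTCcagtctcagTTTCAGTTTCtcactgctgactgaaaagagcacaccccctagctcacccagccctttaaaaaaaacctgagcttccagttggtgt
Igtp: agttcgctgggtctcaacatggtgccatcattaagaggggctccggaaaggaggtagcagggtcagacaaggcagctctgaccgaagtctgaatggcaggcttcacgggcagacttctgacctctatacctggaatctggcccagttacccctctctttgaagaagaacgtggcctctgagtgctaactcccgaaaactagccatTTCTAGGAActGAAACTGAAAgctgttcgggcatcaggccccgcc
Irgm2: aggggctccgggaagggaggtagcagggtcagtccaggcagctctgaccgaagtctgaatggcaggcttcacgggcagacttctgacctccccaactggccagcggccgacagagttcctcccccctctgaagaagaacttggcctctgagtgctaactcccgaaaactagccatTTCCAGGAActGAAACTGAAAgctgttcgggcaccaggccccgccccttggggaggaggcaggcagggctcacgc
Irf1: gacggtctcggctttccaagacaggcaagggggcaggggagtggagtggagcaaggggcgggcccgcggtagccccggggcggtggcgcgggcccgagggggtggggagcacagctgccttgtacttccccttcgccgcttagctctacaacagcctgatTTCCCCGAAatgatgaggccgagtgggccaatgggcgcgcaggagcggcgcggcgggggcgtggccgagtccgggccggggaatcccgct
Ifi44: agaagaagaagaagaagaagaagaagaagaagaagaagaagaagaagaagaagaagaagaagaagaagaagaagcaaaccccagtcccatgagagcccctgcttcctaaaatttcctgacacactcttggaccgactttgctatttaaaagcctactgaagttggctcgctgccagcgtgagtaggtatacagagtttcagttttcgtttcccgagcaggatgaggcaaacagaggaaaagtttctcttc

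The 3 cores of Isg15 overlapped one another, at 78 to 69, 72 to 63 and 66 to 57 bases before the start. Igtp and Irgm2 carried the palindrome 45 to 37 and 75 to 67 bases before their starts, each followed 2 bases later by a core, in nearly the same letters. The bases after the starts used for Irgm2 and Ifi44 were not found in other annotated transcripts of these genes, so their positions are less certain. Irf1 had a further window, not shown, without a match. Members with and without a core mostly fell. With 21h10 at 1 nM, 4 of the 19 members with a core rose and 15 fell, and 3 of the 19 without one rose and 15 fell. For the palindrome, 3 of 12 members with it rose and 8 fell, against 4 and 22 of 26 without it. Of all genes, 38.3% rose and 42.1% fell in that comparison.

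Without added cytokine, the set was already expressed. In unstimulated cells 49 of the 51 members reached 1 RPKM in each experiment, with a median member level of 13.9 RPKM in the first and 22.4 RPKM in the second. Igtp, an IRG that guards against vacuolar parasites, had the highest level in both, at 165 and 168 RPKM in the first experiment. Bst2, which tethers budding virions to the cell surface, followed at 165 and 166 RPKM, and Irgm1 and Ifi47, both IRGs, averaged 84.1 and 67.3 RPKM. The lowest member was Oas2, an oligoadenylate synthetase, averaging 0.445 RPKM. Levels of Igtp and Bst2 in the first experiment did not differ beyond the spread of their duplicates.

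Most of the set was lower with either cytokine than in unstimulated cells. In the first experiment, edgeR (quasi-likelihood fits, Benjamini-Hochberg adjusted p under 0.05 over 13974 genes) called 31 members lower and 14 higher with mIL-21 at 100 pM, against 39.4% of all genes lower and 38.3% higher. With mIL-21 at 1 nM it called 34 lower and 11 higher (all genes, 40.3% and 39.9%), with 21h10 at 100 pM 35 lower and 10 higher (41.3% and 40.2%), and with 21h10 at 1 nM 36 lower and 12 higher (42.1% and 38.3%). Median member log2 fold changes were −0.42, −0.85, −0.96 and −0.98 in that order, beside medians of all genes between −0.04 and 0. In the second experiment, over 13772 genes, 32 members fell and 5 rose with mIL-21 at 10 nM (all genes, 23.7% and 22.5%), 32 fell and 8 rose at 100 nM (23.7% and 22.5%), 31 fell and 9 rose with 21h10 at 10 nM (24.9% and 25.2%), and 30 fell and 9 rose at 100 nM (25.8% and 25%). Their medians were −0.47, −0.47, −0.43 and −0.45. The plot of calls by comparison sets these counts side by side.

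**Figure D1:**
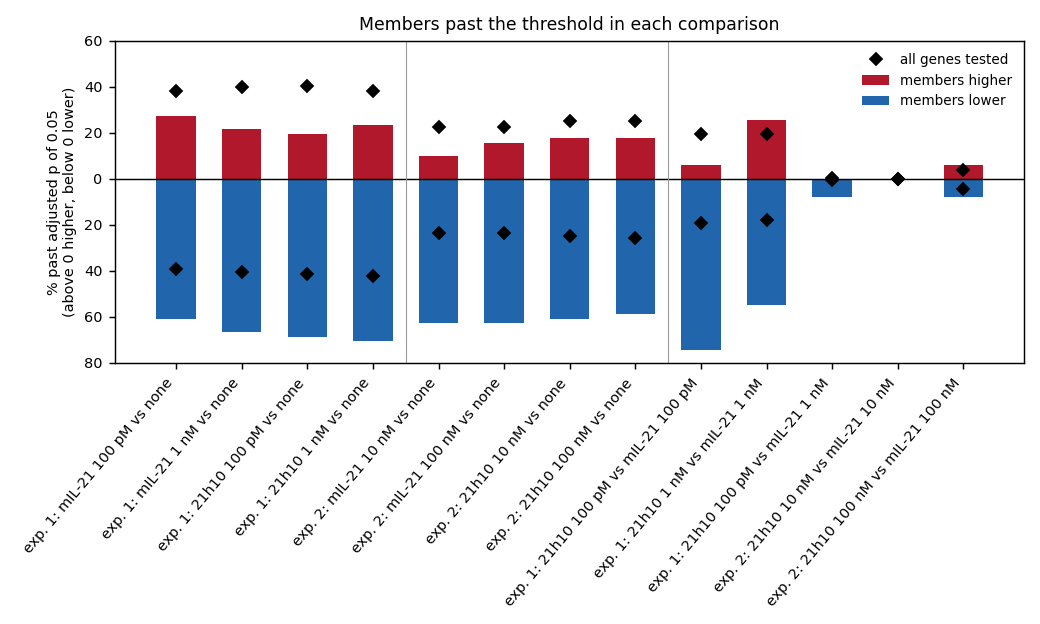
Percentage of the 51 members past an adjusted p of 0.05 in each comparison of the 2 experiments, higher above 0 (red bars) and lower below 0 (blue bars), with the same percentages over all genes tested (diamonds). Against unstimulated cells, 30 to 36 members were lower and 5 to 14 higher in the 8 treated groups, while at 10 nM no member differed between the cytokines.

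In all 8 treated groups 19 members fell and none rose, against 8.11% and 7.94% of the 13248 genes tested in both experiments. The 19 were Ifih1, Mx1, Oasl1, Cmpk2, Eif2ak2, Bst2, Usp18, Trim25, Ifi35, Ifi44, Xaf1, Slfn8 and the 7 IRGs, although the fall of Trim25 with mIL-21 at 100 pM was not called by limma (−0.09). DESeq2 did not call the fall of Ifi44 in that group (−0.40), and fits of the compared groups alone did not call Eif2ak2 with 21h10 or Ifi35 with mIL-21 in the second experiment. Within the first experiment 28 members fell in all 4 treated groups and 4 rose (Dhx58, Samd9l, Dtx3l and Parp9), against 32% and 28.6% of all genes. In the second, 26 fell and 4 rose (Zbp1, Parp12, Parp14 and Gbp2), against 16.3% and 15.5%. In all, 18 members were called in opposite directions in at least 1 pair of the 8 comparisons (27.4% of all genes), and no member went without a call. The heat map of member levels shows the falling and rising genes by class.

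**Figure D2:**
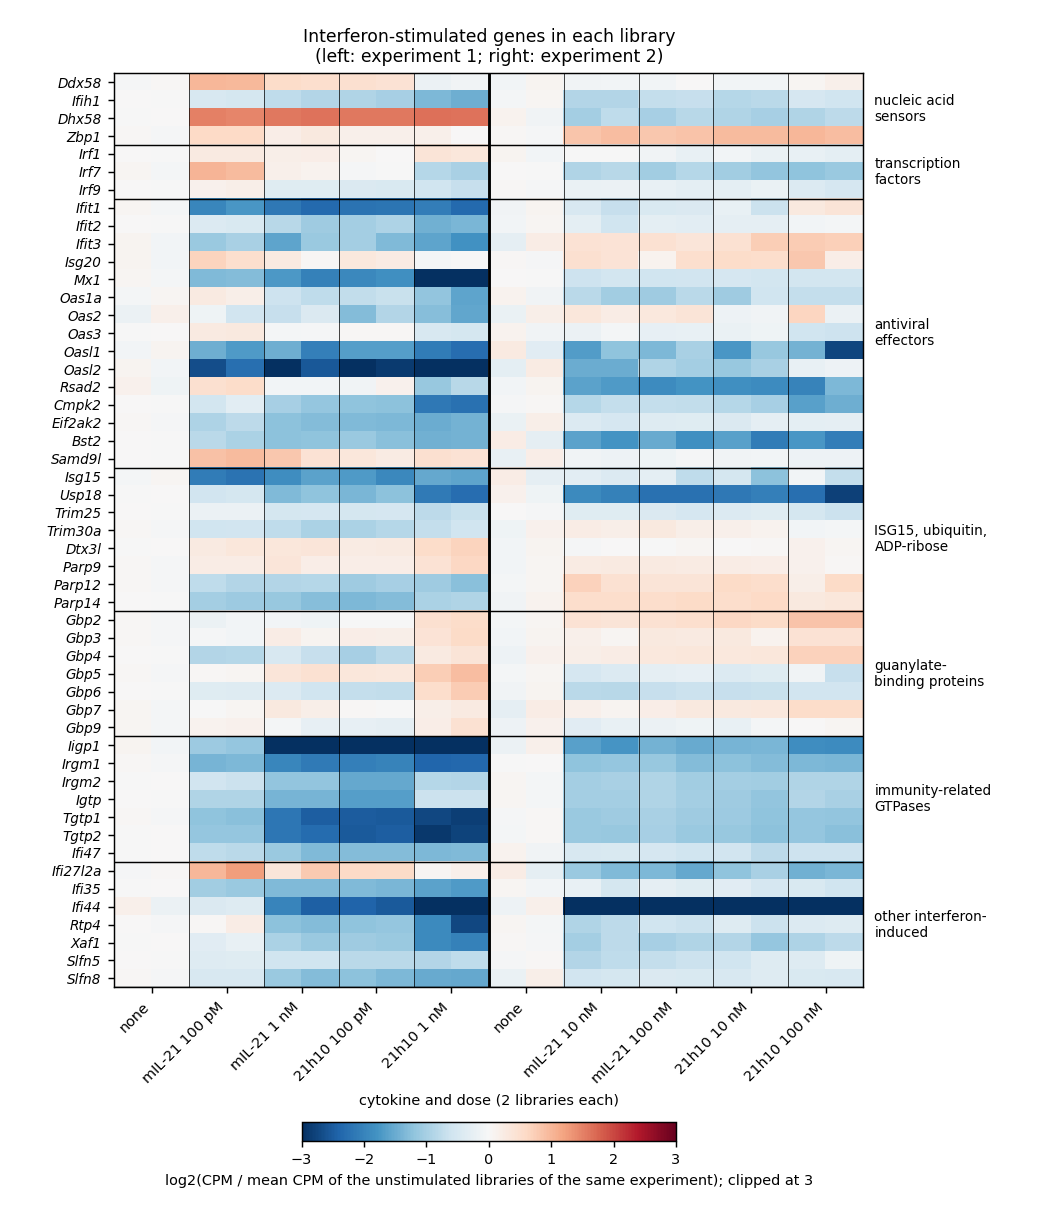
Heat map of the log2 ratio of each library's CPM to the mean CPM of the unstimulated libraries of its experiment (color, clipped at 3) for the 51 members (rows, by class) in the 20 libraries (columns, first experiment on the left). The 7 IRGs are blue in the treated libraries of both experiments, whereas Dhx58 is red in the 8 treated libraries of the first and blue in those of the second.

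The cytosolic sensors, which detect viral nucleic acid and start interferon production, did not move together. Dhx58, the regulator of RIG-I-like receptors also called LGP2, stood at 21.7 and 22 CPM in unstimulated cells of the first experiment and at 60.6 to 69 CPM in its 8 treated libraries, with no overlap. Its log2 fold changes were 1.49, 1.61, 1.58 and 1.65 with the 2 doses of mIL-21 and then of 21h10 (100 pM first in each pair), each with an SE of 0.05 and an adjusted p of at most 3.15e-14 (edgeR). At 10 and 100 nM it went the other way, from 33.1 and 28.8 CPM to between 15.3 and 18.4 CPM, log2 fold changes of −0.84 to −0.96. Part of Dhx58 (4.309% of its exonic bases) lies opposite an antisense gene.

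Zbp1, a sensor of Z-form nucleic acid that triggers necroptosis, was at 31.8 and 30.5 CPM in unstimulated cells and at 47.5 and 47.5 CPM with mIL-21 at 100 pM, a log2 rise of 0.61 ± 0.06 (SE). The rise was 0.25 with mIL-21 at 1 nM, 21h10 at 100 pM gave a rise of 0.16 that limma did not call (0.13), and 21h10 at 1 nM gave 0.07, which did not pass the test. With the higher doses Zbp1 went from 68.7 and 66.1 CPM to between 118.8 and 133.8 CPM in the 8 treated libraries, rises of 0.83 to 0.95. Ddx58, which encodes RIG-I, rose by 0.99 with mIL-21 at 100 pM (40.9 and 42.3 CPM to 82.4 and 82.3 CPM), yet fell by 0.14 with 21h10 at 1 nM (36.7 and 38.8 CPM), a call that DESeq2 did not make (−0.11). No comparison of the second experiment called it. Ifih1, which encodes MDA5, fell in all 8 groups, by 0.50 to 1.41 on the log2 scale in the first experiment.

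Irf7, the factor that amplifies type I interferon production, was higher at the lowest dose of mIL-21 and lower with 21h10 at 1 nM. It stood at 19.5 and 18 CPM unstimulated, 38.2 and 36.5 CPM with mIL-21 at 100 pM, 20.8 and 20.3 CPM with mIL-21 at 1 nM, 18.4 and 18.6 CPM with 21h10 at 100 pM, and 10.3 and 9.49 CPM with 21h10 at 1 nM. It was thus 1.99-fold up at the lowest mIL-21 dose (log2 0.99 ± 0.07), near the unstimulated level in the middle groups (0.13 and −0.02, neither called), and down with 21h10 at 1 nM (−0.93 ± 0.07, adjusted p = 2.53e-09, edgeR). At 10 and 100 nM every treated library lay between 18.9 and 24.6 CPM, below the 44.1 and 43 CPM of unstimulated cells, with falls of 0.86 to 1.16.

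Irf9, the DNA-binding subunit of the type I complex, was called higher with mIL-21 at 100 pM (0.14, a call lost without the filter on low counts) and lower in the other 3 groups of the first experiment, by 0.36, 0.44 and 0.64. At high doses it fell by 0.24 to 0.45 in 3 groups and by 0.19 at 10 nM mIL-21, which did not pass the test. Irf1, the first-wave factor of the IFN-γ response, moved little. It rose by 0.28, 0.19 and 0.37 with mIL-21 at its lower and higher dose and 21h10 at 1 nM (135.4 and 131.9 CPM unstimulated, 175 and 170 CPM at most), and the single call at high dose was a fall of 0.27 with 21h10 at 100 nM, which lost its call when the compared groups alone were fitted (−0.25).

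Among the 15 antiviral effectors, 9 to 13 fell and 1 to 5 rose in each comparison with unstimulated cells of the first experiment. In the second, 8 to 11 fell and 0 to 2 rose. Of all genes, 39.4% to 42.1% fell and 38.3% to 40.2% rose in the first. The shares in the second were 23.7% to 25.8% and 22.5% to 25.2%. Mx1, of the dynamin-like GTPases, fell with dose. It stood at 37.5 and 34.7 CPM unstimulated, 14.4 and 14.6 CPM with mIL-21 at 100 pM, 11 and 8.88 CPM with mIL-21 at 1 nM, 9.45 and 10.11 CPM with 21h10 at 100 pM, and 4.08 and 4.35 CPM with 21h10 at 1 nM. The last group was 8.54-fold below unstimulated cells (log2 −3.09 ± 0.10, adjusted p = 5.84e-15, edgeR), and only the libraries of mIL-21 at 1 nM and 21h10 at 100 pM overlapped. The fall was smaller at 10 and 100 nM, from 17.9 and 17.6 CPM to between 11.5 and 12.6 CPM, log2 changes of −0.53 to −0.59.

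Oasl2, of the oligoadenylate synthetase-like proteins, fell from 4.51 and 4.07 CPM to between 0.358 and 0.897 CPM in the first experiment, with log2 changes of −2.46 to −3.25. Ifit1, which binds viral RNA lacking host cap methylation, fell from 14.1 and 12.9 CPM to between 2.67 and 4 CPM, changes of −1.87 to −2.24. In the second experiment Ifit1 was called lower with mIL-21, by 0.59 at 10 nM and 0.44 at 100 nM (the latter not called by DESeq2). With 21h10 at 10 nM it averaged 6.96 CPM, beside 6.82 CPM with mIL-21 at 100 nM, and was not called. It read 11.3 and 12.1 CPM with 21h10 at 100 nM, above the 8.64 and 9.87 CPM of unstimulated cells by 0.34, which did not pass the test. Bst2 fell in all 8 groups, by 0.88 to 1.42 in the first experiment and, from 73 and 52 CPM to between 14.7 and 21.9 CPM, by 1.67 to 1.91 in the second.

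Rsad2, whose product viperin makes a chain-terminating nucleotide, rose by 0.49 with mIL-21 at 100 pM and fell by 0.98 with 21h10 at 1 nM. At 10 and 100 nM it fell from 7.17 and 8.02 CPM to between 1.89 and 2.97 CPM, changes of −1.65 to −1.85. Its chromosomal neighbor Cmpk2, a mitochondrial nucleotide kinase, fell in all 8 groups, most with 21h10 at 1 nM (20.1 and 19.7 to 4.53 and 4.25 CPM, −2.19 ± 0.10). Oas3 and Oas1a, further oligoadenylate synthetases, rose with mIL-21 at 100 pM by 0.29 and 0.23 and fell with 21h10 at 1 nM by 0.50 and 1.39, although DESeq2 did not call the rise of Oas1a. Samd9l, a translation repressor, was called higher in the 4 groups of the first experiment (0.92, 0.63, 0.29 and 0.46) and in none of the second. Reads of Oas1a and Oas1g, and of Ifit3 and Ifit3b, may have been assigned to either copy, since 100% and 97.42% of the member's transcript aligned to the other gene at 97% identity or more.

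Isg15, the ubiquitin-like modifier attached to newly made proteins, fell at every dose of the first experiment. It stood at 15.7 and 16.8 CPM unstimulated and between 3.49 and 5.65 CPM in the 8 treated libraries of the first experiment. The fall was greatest at the lowest dose of mIL-21 (−2.15 ± 0.11) and least with 21h10 at 1 nM (−1.55 ± 0.10). In the second experiment unstimulated cells had 6.76 and 4.8 CPM and treated libraries 2.45 to 5.47 CPM, and 1 of the 4 comparisons passed the test (21h10 at 10 nM, −0.84 ± 0.28, adjusted p = 0.0187, edgeR).

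Usp18, the protease that removes ISG15 and restrains the type I receptor, fell in all 8 groups. It stood at 31.6 and 32.1 CPM unstimulated, 21.4 and 21.9 CPM with mIL-21 at 100 pM, 12.8 and 13.8 CPM with mIL-21 at 1 nM, 12.2 and 13.6 CPM with 21h10 at 100 pM, and 7.27 and 6.54 CPM with 21h10 at 1 nM. Log2 fold changes were −0.55, −1.26, −1.30 and −2.21 (SE 0.07 to 0.08), and mIL-21 at 1 nM and 21h10 at 100 pM again overlapped. At 10 and 100 nM it fell from 33.3 and 28 CPM to between 4.42 and 8.2 CPM, changes of −1.96 to −2.50.

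Parp14 and Parp12, ADP-ribosyltransferases with antiviral roles, changed direction between the experiments. Parp14 went from 206.9 and 202.5 CPM to between 80.9 and 110 CPM in the first (−0.93 to −1.32) and from 201.9 and 233.1 CPM to between 268 and 327 CPM in the second (0.32 to 0.56). Parp12 fell by 0.82 to 1.18 in the first and rose by 0.38 to 0.58 in the second. The mean response of the 4 treated groups differed between experiments by 1.56 ± 0.08 for Parp14 and 1.38 ± 0.13 for Parp12 (adjusted p = 2.14e-13 and 6.49e-09, edgeR over all 20 libraries). With library sizes taken from mapped reads, the rise of Parp14 with 21h10 at 100 nM was 0.02 and the rises of Parp12 with mIL-21 at 100 nM, 21h10 at 10 nM and 21h10 at 100 nM were 0.16, 0.27 and 0.07, none of which passed the test. Parp9 and Dtx3l encode partners in an ADP-ribosylation and ubiquitin ligase complex. They rose in the 4 groups of the first experiment, by 0.21 to 0.52 and 0.26 to 0.61 respectively. Their exons overlap on opposite strands (9.401% and 8% of exonic bases), so their reads may not be separable.

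**Figure D3:**
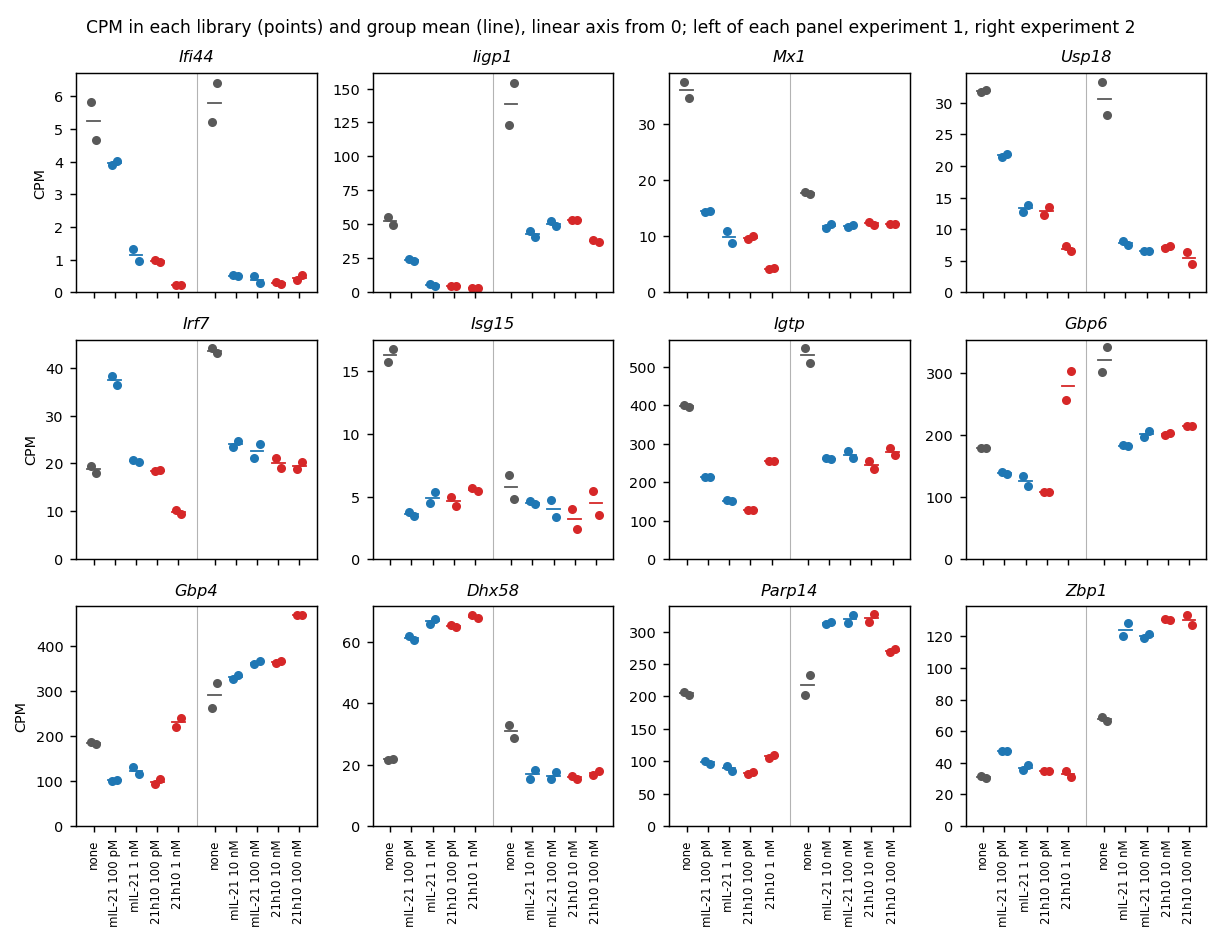
Expression of 12 members in every library (points, CPM after TMM scaling, linear axis from 0, with a line at each group mean) in unstimulated cells and at each cytokine and dose. Ifi44, Mx1 and Usp18 were lowest with 21h10 at 1 nM in the first experiment, whereas Igtp and Gbp6 rose again between 21h10 at 100 pM and 1 nM.

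The GBPs, GTPases that coat and break open pathogen vacuoles, were all called higher with 21h10 at 1 nM, by 0.23 (Gbp7) to 0.85 (Gbp5) on the log2 scale, although Gbp7 (0.14) lost its call under limma. Of all genes, 38.3% were called higher in that comparison. With mIL-21 at 100 pM none of the GBPs was called higher and 3 were called lower. The shares of all genes there were 38.3% and 39.4%, so the count of lower GBPs was near its share. Gbp6 stood at 179 and 179 CPM unstimulated, 140.3 and 136.8 CPM with mIL-21 at 100 pM, 134.1 and 117.7 CPM with mIL-21 at 1 nM, 109 and 108 CPM with 21h10 at 100 pM, and 257 and 303 CPM with 21h10 at 1 nM. Its changes were −0.37, −0.51, −0.73 and 0.64 (SE 0.07), and the last group alone lay above unstimulated cells. Gbp6 fell in all 4 groups of the second experiment, by 0.58 to 0.81. Gbp10 matches 97.39% of the Gbp6 transcript, so the gene that the reads came from is uncertain.

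Gbp4 was likewise above unstimulated cells with 21h10 at 1 nM alone in the first experiment, with 186 and 183 CPM unstimulated, 101 and 102 CPM with mIL-21 at 100 pM, 131 and 115 CPM with mIL-21 at 1 nM, 93.1 and 105 CPM with 21h10 at 100 pM, and 221 and 241 CPM with 21h10 at 1 nM (0.32 ± 0.06). At 100 nM 21h10 it rose from 262 and 319 CPM to 470 and 469 CPM (0.69 ± 0.09). Gbp2 rose from 159 and 153 CPM to 216 and 227 CPM with 21h10 at 1 nM (0.51 ± 0.05) and, in the second experiment, in all 4 groups (0.41, 0.48, 0.60 and 0.86), reaching 611 and 608 CPM against 325 and 348 CPM. The rises of Gbp2 held with library sizes from mapped reads (0.23, 0.26, 0.33 and 0.56), while those of Gbp4 with mIL-21 at 100 nM and 21h10 at 10 nM did not (0.10 and 0.06). Gbp5, which also promotes inflammasome assembly, rose with dose in the first experiment (36.7 and 35.2 CPM unstimulated, 60.3 and 68.8 CPM with 21h10 at 1 nM) and fell by 0.36 to 0.46 in 3 groups of the second.

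The IRGs, GTPases that act with the GBPs on pathogen vacuoles, fell in all 8 groups in all 7 genes. Class medians were −1.12, −2.03, −2.03 and −2.37 in the first experiment, in the order of the lower and higher dose of mIL-21 and then of 21h10, and −1.09, −1.01, −1.15 and −1.18 in the second, at 10 and 100 nM of each in turn. Iigp1, which also coats vacuoles of Chlamydia and Toxoplasma, stood at 55.1 and 49.4 CPM unstimulated, 24.7 and 23.4 CPM with mIL-21 at 100 pM, 6.39 and 4.77 CPM with mIL-21 at 1 nM, 4.93 and 4.45 CPM with 21h10 at 100 pM, and 3.44 and 3.48 CPM with 21h10 at 1 nM. The last was 15.1-fold below unstimulated cells (log2 −3.92 ± 0.11, adjusted p = 1.05e-15, edgeR). In the second experiment the unstimulated level was higher (123 and 154 CPM) and treated libraries lay between 37.3 and 53.4 CPM, falls of 1.38 to 1.87.

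Igtp and Irgm2 were higher with 21h10 at 1 nM than at 100 pM. Igtp stood at 401 and 397 CPM unstimulated, 213 and 213 CPM with mIL-21 at 100 pM, 153 and 151 CPM with mIL-21 at 1 nM, 128 and 127 CPM with 21h10 at 100 pM, and 255 and 254 CPM with 21h10 at 1 nM. Its changes of −0.91, −1.39 and −1.65 were thus followed by −0.65 (SE 0.04), with no overlap between any groups. Irgm2, which shares 4.39% of its exonic bases with Igtp, gave −0.60, −1.18, −1.53 and −0.87. In contrast Tgtp1 (197 and 188 CPM unstimulated, 29 and 27.2 CPM with 21h10 at 1 nM) fell in the same order, by 1.22, 2.32, 2.51 and 2.78. Tgtp1 and its near-identical copy Tgtp2 (99.751% identity) cannot be separated with confidence. With higher doses, Igtp lay between 234 and 289 CPM against 550 and 510 CPM, falls of 0.92 to 1.12.

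Of the other interferon-induced genes, Ifi44, a cytoplasmic protein of unclear biochemical function, fell furthest of all members. It stood at 5.83 and 4.67 CPM unstimulated, 3.90 and 4.02 CPM with mIL-21 at 100 pM, 1.33 and 0.967 CPM with mIL-21 at 1 nM, 0.997 and 0.916 CPM with 21h10 at 100 pM, and 0.224 and 0.237 CPM with 21h10 at 1 nM. The fall grew from 1.34-fold to 22.7-fold (log2 −0.42 ± 0.14 and −4.50 ± 0.24). In cells of the second experiment it went from 5.2 and 6.41 CPM to between 0.258 and 0.53 CPM, falls of 11.4- to 19.9-fold. The gene had as few as 8 reads in a library of each experiment. Ifi27l2a, a small mitochondrial protein, rose by 1.13 with mIL-21 at 100 pM (14.1 and 14.6 to 28.8 and 34.1 CPM), by 0.60 and 0.59 with mIL-21 at 1 nM and 21h10 at 100 pM, and fell by 1.08 to 1.45 in all 4 groups of the second experiment.

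Whether 21h10 and native mIL-21 differed at the same dose was examined next. At 100 pM, 21h10 gave lower levels than mIL-21 in 38 members and higher levels in 3 (all genes, 19% and 19.6%), with a median difference of −0.45. At 1 nM, 28 were lower and 13 higher (18.1% and 19.6%), with a median of −0.28. The direction held at both doses for 27 members that were lower with 21h10 and for Gbp3 and Gbp5, which were higher (all genes, 8.59% and 10.7%), although Gbp3 lost its call at 100 pM with library sizes from mapped reads and with limma. The largest differences at 100 pM were those of Iigp1 (−2.37 ± 0.10) and Ifi44 (−2.06 ± 0.17), and Tgtp2 followed with −1.34. At 1 nM Ifi44 again differed by −2.29 ± 0.33, Mx1 by −1.23, Cmpk2 by −1.11 and Irf7 by −1.06, while Gbp6, Gbp4 and Igtp were higher with 21h10 by 1.15, 0.91 and 0.75. Isg15 was one of the 3 members higher with 21h10 at 100 pM (0.32 ± 0.12), a call that DESeq2, limma and library sizes from mapped reads did not give, and its levels at 1 nM differed by 0.16, which did not pass the test.

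The difference between the cytokines depended on dose for 23 members, tested as a difference of differences. It moved in favor of 21h10 from 100 pM to 1 nM in 21 and against it in 2 (all genes, 8.34% and 10%), with a median shift of 0.22. For Irf1, Trim30a, Parp14, Gbp6, Gbp9, Irgm2 and Igtp the sign changed, from lower with 21h10 at 100 pM to higher at 1 nM (0.78% of all genes). The shift was largest for Iigp1 (1.69 ± 0.18), Gbp6 (1.51 ± 0.10) and Igtp (1.49 ± 0.06). For Iigp1 the shift narrowed the gap, and both differences were below 0. Mx1 and Oas3 shifted the other way, by −0.67 and −0.20, but limma called neither (−0.31 and −0.13), and Oas3 was not called by DESeq2 (−0.17), without the filter (−0.20) or with library sizes from mapped reads (−0.14). These members stand off the diagonal in the plot of cytokine differences at both doses.

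**Figure D4:**
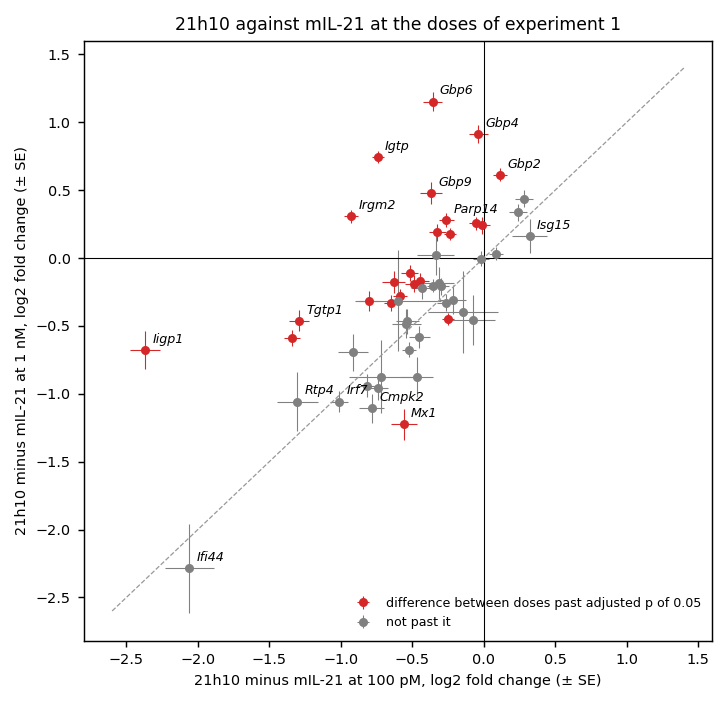
Difference between 21h10 and mIL-21 (log2, ±SE) at 100 pM (horizontal axis) and 1 nM (vertical axis) for the 51 members, with members whose difference changed with dose in red. Igtp, Irgm2, Gbp6 and Gbp9 lie in the upper left, below 0 at the lower dose and above 0 at the higher, while Ifi44 lies far below 0 on both axes.

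Dose itself was tested within each cytokine. From 100 pM to 1 nM, mIL-21 lowered 35 members and raised 5 (all genes, 16.6% and 17.9%), a median of −0.36, and 21h10 lowered 25 and raised 14 (19.1% and 20.1%), a median of −0.20. Both cytokines lowered 24 members at their higher dose and both raised Gbp3, Gbp4, Gbp5 and Gbp7 (all genes, 8.01% and 10.7%). With mIL-21 the rises of Gbp3, Gbp4 and Gbp7 were not called by limma (0.09, 0.15 and 0.09) or with library sizes from mapped reads (0.10, 0.16 and 0.10), and limma did not call Gbp7 with 21h10 (0.15). Trim30a, Parp14, Gbp9, Irgm2 and Igtp went down with mIL-21 dose and up with 21h10 dose (0.759% of all genes). Igtp, for example, rose by 1.00 from 128 and 127 CPM to 255 and 254 CPM with 21h10. The lowest group mean was that of 21h10 at 1 nM for 31 of the 51 members, but the share of all genes with this order was not computed.

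Levels with 21h10 at 100 pM lay near those with mIL-21 at 1 nM. When these groups were compared, 4 members were lower with 21h10 and none higher (all genes, 0.58% and 0.157%), with a median difference of −0.08. The 4 were Irgm2 (−0.35), Gbp4 (−0.31), Tgtp2 (−0.26) and Igtp (−0.25), named after their values were seen. By edgeR, 11 of the 51 members had an unadjusted p under 0.05, beside 1400 of 13974 genes. DESeq2 called 6 lower and limma 1, and neither called any higher. Over the set, differences ran from −0.49 to 0.13, and the 95% interval of the difference lay within 1 log2 unit on either side of 0 for all 51 members and within 0.5 for 45. This count rested on single libraries, as it was 1 without the first duplicate of 21h10 at 100 pM and 8 without the second duplicate of mIL-21 at 1 nM.

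The cytokines were then compared at the doses of the second experiment, where the spread between duplicates was larger (biological coefficient of variation of 8.8%, against 4.32% in the first). At 10 nM edgeR called no member different (all genes, 0.00726% higher and 0% lower), nor did DESeq2 or limma. By edgeR, 6 of the 51 members had an unadjusted p under 0.05, beside 1207 of 13772 genes. The 95% intervals lay within 1 log2 unit of 0 for 47 members and within 0.5 for 37, the widest reaching −1.79 (Ifi44). At 100 nM, Ifit1, Gbp2 and Gbp4 were higher with 21h10, by 0.78, 0.38 and 0.37, and Cmpk2, Iigp1, Oas3 and Trim30a lower, by 0.82, 0.41, 0.37 and 0.31 (3 higher and 4 lower, against 4.02% and 4.52% of all genes). limma called 2 higher and 5 lower, and without the first duplicate of mIL-21 at 100 nM edgeR called 1 member. From 10 to 100 nM, mIL-21 changed no member by edgeR, DESeq2 or limma (0% of all genes in each direction by edgeR). For that step 1 member had an unadjusted p under 0.05 by edgeR, beside 361 of 13772 genes. 21h10 raised Ifit1 and Gbp4 (0.75 and 0.36) and lowered Cmpk2, Iigp1 and Oas3 by 0.63, 0.49 and 0.44 (all genes, 1.88% and 3.45%), and none of these 5 was left without the first duplicate of 21h10 at 100 nM. Iigp1 alone had a cytokine difference that changed with dose (−0.73 ± 0.15; all genes, 0.465% lower and 0.457% higher).

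The mean response of the 4 treated groups differed between the experiments for 36 members, being more positive in the second for 22 and more negative for 14 (31.2% and 33.5% of 14530 genes). Dhx58 had the most negative difference (−2.54 ± 0.10) and Oasl2 the most positive (1.95 ± 0.29). Unstimulated levels also differed, Iigp1 for instance reading 55.1 and 49.4 CPM in the first experiment and 123 and 154 CPM in the second. The splits of the second experiment moved with scaling. With library sizes from mapped reads, in place of TMM, the calls against unstimulated cells became 3 higher and 38 lower for mIL-21 at 100 nM, 3 and 39 for 21h10 at 10 nM, and 4 and 36 for 21h10 at 100 nM. That scaling shifts the median of all genes by −0.18 to −0.30 in the second experiment and by −0.08 to 0.08 in the first.

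The genes that carry and restrain interferon signals were read from a list with 36 genes in the tables, of which 32 passed the filter. In the first experiment it had 18, 16, 16 and 15 genes higher and 9, 9, 10 and 10 lower in the 4 comparisons with unstimulated cells, against 38.3% to 40.2% of all genes higher and 39.4% to 42.1% lower. In the second it had 13, 12, 11 and 11 higher and 11, 13, 12 and 13 lower, against 22.5% to 25.2% and 23.7% to 25.8% of all genes. Among the ligands, Ifnb1, Ifna4 and Ifnl2 never exceeded 0.0727 CPM (4 reads) and were not tested. Ifng, encoding IFN-γ, stood at 5.6 and 5.45 CPM unstimulated and 2.248 and 2.025 CPM with mIL-21 at 100 pM (−1.37 ± 0.13), at 6.47 and 5.28 CPM with mIL-21 at 1 nM (0.08, not called), at 4.49 and 4.67 CPM with 21h10 at 100 pM (−0.27), and at 10 and 10.2 CPM with 21h10 at 1 nM (0.87 ± 0.10). At 10 and 100 nM it rose from 4.19 and 4.75 CPM to between 47 and 57.5 CPM, log2 changes of 3.48 to 3.67, in the same libraries in which 30 to 32 members fell.

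Stat2, of the type I complex, rose by 0.60 to 1.23 in the first experiment and was not called in the second. Socs3, an inhibitor of cytokine receptors and a STAT3 target, rose from 6.57 and 6.67 CPM to 47.8 and 44.6 CPM with mIL-21 at 100 pM, 296 and 312 CPM with mIL-21 at 1 nM, 172 and 169 CPM with 21h10 at 100 pM, and 686 and 606 CPM with 21h10 at 1 nM (2.81, 5.52, 4.69 and 6.61; SE 0.07 to 0.08). With 10 and 100 nM it rose from 11.9 and 11.8 CPM to between 261 and 344 CPM. Socs1, the feedback inhibitor of interferon receptors, rose at 1 nM of each cytokine (0.61 and 0.82) and in no other group. Irf4, the lymphoid factor that scales with activation, fell by 0.78 to 0.98 in all groups but 21h10 at 1 nM, where the change was 0.08 and not called.

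**Figure D5:**
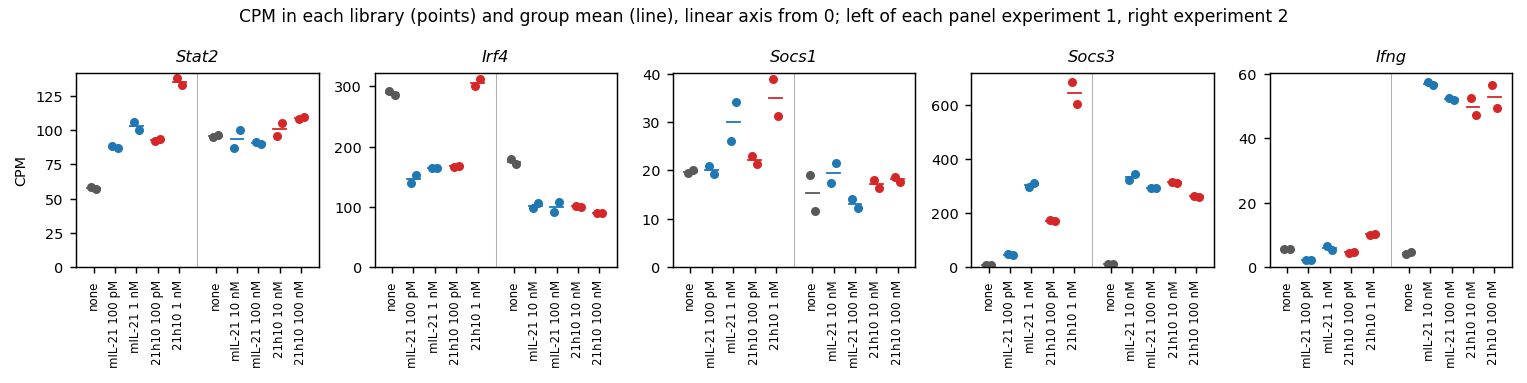
Expression of Stat2, Irf4, Socs1, Socs3 and Ifng in every library (points, CPM after TMM scaling, linear axis from 0, with a line at each group mean). Socs3 was above its unstimulated level in all 16 treated libraries, while Ifng lay between 47 and 57.5 CPM in the 8 treated libraries of the second experiment.

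Another list, of 57 further interferon-induced genes, 50 tested in the first experiment and 49 in the second, was read beside the members. In the first experiment 18, 15, 13 and 12 rose and 20, 27, 30 and 34 fell with the lower and higher dose of mIL-21 and then of 21h10, with medians of −0.11, −0.31, −0.41 and −0.60, beside the all-gene shares of 38.3% to 40.2% higher and 39.4% to 42.1% lower. The counts for mIL-21 at 100 pM, 18 and 20 of 50, were thus near those shares. In the second, 11 to 14 of 49 rose and 15 to 20 fell, beside the shares of that experiment given above. Between the cytokines, 31 were lower and 8 higher with 21h10 at 100 pM (all genes, 19% and 19.6%). The counts were 25 and 12 at 1 nM (18.1% and 19.6%), and 6 and 4 at 100 nM (4.52% and 4.02%). At 100 pM and 1 nM the counts of higher genes were thus near the shares of all genes.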

How the data were processed

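RNA was sequenced from 20 libraries, grouped by their labels into 5 groups of 2 in each of 2 experiments. Per the submitters' processing notes, Bowtie2 2.2.6, TopHat2 2.0.11, SAMtools 0.1.8, bedtools 2.25.0 and edgeR were used. The authors deposited whole-number read counts and RPKM per RefSeq transcript on mm10; the counting tool and its use of strand are not given in the sources used here. Of 31682 transcripts, the longest stood for each of 23992 symbols (13 members had several). In R 4.3.3, deposited counts were filtered (filterByExpr, at least 10 reads, 15 in total), TMM-scaled and tested by edgeR 4.0.16 quasi-likelihood fits, 1 per experiment, and 1 over all libraries for the contrast between experiments. Alternatives were DESeq2 1.42.0, limma 3.58.1 on log2(RPKM + 1) for genes with at least 1 RPKM in 2 libraries, no filter, the most-read transcript, library sizes from mapped reads, a duplicate-number block, the compared groups alone, a log2 limit of 1, and each library left out. Similar transcripts were found with BLAST 2.17.0. The fits were also run on simulated counts in which few genes changed, unlike these data, so that run does not test them under the conditions here.

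Members and lists were chosen with earlier results of these data known. Library values are given for the 3 members with the largest rises and the 3 with the largest falls past the threshold (groups not overlapping, at least 1 RPKM) against unstimulated cells and between cytokines at 1 dose, for the 3 highest in unstimulated cells, for Irf1, Irf7, Irf9, Isg15 and Usp18, and for members whose direction differed between groups. Pathway values are given for Stat2, Ifng, Socs1, Socs3 and Irf4, and 1 more gene is not reported here.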

Additional observations from a re-analysis of the deposited data

Results flagged for a closer look

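With 2 libraries in a group, no single library could be tested for standing apart. The results here had effects that differed between doses or between experiments by a test of the difference itself (edgeR, adjusted p under 0.05). Between 100 pM and 1 nM the difference of 21h10 from mIL-21 changed for 23 members. The change on the log2 scale was 1.69 for Iigp1, 1.51 for Gbp6, 1.49 for Igtp, 1.24 for Irgm2, 0.95 for Gbp4, 0.85 for Gbp9, 0.54 for Parp14, 0.51 for Trim30a and 0.42 for Irf1. It was −0.67 for Mx1 and −0.20 for Oas3. Between 10 and 100 nM it changed for 1 member, Iigp1 (−0.73). The mean response to the 4 treatments differed between the experiments for 36 members, by −2.54 for Dhx58, 1.38 for Parp12 and 1.56 for Parp14. The experiments differ in dose range, unstimulated level and depth together, and these cannot be told apart.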

How the results depend on the processing

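A further limit of 1 on the absolute log2 fold change left 14, 24, 26 and 26 members called against unstimulated cells with the lower and higher dose of mIL-21 and then of 21h10 in the first experiment, and 12, 10, 15 and 12 with mIL-21 at 10 and 100 nM and 21h10 at 10 and 100 nM. Among these, 2, 1, 1 and 1 were higher in the first experiment and 0 in each group of the second. Shares of all genes past this limit were not computed, so these counts cannot be set against them. It left 6 members between cytokines at 100 pM and 6 at 1 nM, 5 between doses of mIL-21 and 7 between doses of 21h10 in the first experiment, 4 for the change of the cytokine difference there, and 14 between experiments. It left 0 for 21h10 at 100 pM against mIL-21 at 1 nM, and 0 in the second experiment for the cytokine difference at 100 nM, the dose of 21h10 and the change of the cytokine difference. The 4 members lower with 21h10 at 100 pM than with mIL-21 at 1 nM became 7 without the filter, 1 with limma, 2 with the replicate block and 2 with the compared groups alone. The 5 members changed by the dose of 21h10 in the second experiment became 11 (6 higher, 5 lower) with the compared groups alone, and limma called 1 higher and 3 lower. The single member whose cytokine difference changed between 10 and 100 nM became 2 with DESeq2, 2 without the filter and 0 with limma. With limma the splits against unstimulated cells were 3 higher and 35 lower for mIL-21 at 100 nM, 3 and 37 for 21h10 at 10 nM and 3 and 36 for 21h10 at 100 nM. The cause of these shifts was not tested.

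With 21h10 at 100 nM, the uncalled change of Ddx58 (0.11) became −0.18 with limma, and that of Gbp9 (0.04) became −0.24 with limma and −0.26 with library sizes from mapped reads. The median difference between experiments, 0.12, became −0.06 with limma and −0.04 with mapped reads. Of the other values for single named members, 1474 kept their direction and side of the threshold under an alternative, 43 lost their call and 36 gained one. Deviations of libraries with the same duplicate number correlated at −0.06 to 0.03 in the first experiment and −0.17 to 0.23 in the second. The main fits used no pairing, but these correlations cannot exclude that libraries shared mice or preparations. Beside the count of 2 above, the replicate block gave 8 members instead of 7 between cytokines at 100 nM, and every count of members past the threshold except that of 2 was within 1.5 times its value without the block.

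Leaving out each library in turn left some groups with 1 library, which was assumed to vary like the others. The counts against unstimulated cells ran from 41 to 45 and 43 to 47 (mIL-21 at the lower and higher dose of the first experiment), 41 to 45 and 47 to 48 (21h10), 32 to 42 and 29 to 40 (mIL-21 at 10 and 100 nM), and 31 to 41 and 34 to 39 (21h10). Between cytokines they ran from 37 to 42 at 100 pM, 36 to 39 at 1 nM, 0 to 0 at 10 nM and 1 to 10 at 100 nM, where the highest was without the first unstimulated duplicate. They ran from 1 to 8 for 21h10 at 100 pM against mIL-21 at 1 nM, 32 to 42 and 34 to 41 between doses of mIL-21 and 21h10, 17 to 24 for the change of the cytokine difference, and 36 to 38 between experiments. In the second experiment they ran from 0 to 0 for the dose of mIL-21 and 0 to 8 for that of 21h10 (highest without the first unstimulated duplicate), and from 0 to 2 for the change of the cytokine difference (lowest without the second duplicate of mIL-21 at 10 nM, highest without the first unstimulated duplicate). With duplicates alone, precision at low members such as Ifi44 is limited.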
